A study of Mus musculus with 6 samples.

Results

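The BCL2 family decides whether the outer membrane of the mitochondrion is opened during apoptosis, and its mRNAs were measured here in whole mouse ovaries with wild-type or truncated Bnc1. The members were 10 genes chosen by symbol, with earlier results of these data known. They were the effectors Bax and Bak1, the pro-survival genes Bcl2, Bcl2l1 and Mcl1, and the BH3-only genes Bcl2l11, Bbc3, Pmaip1, Bad and Bid. All 10 were found among the 44788 genes of the count table, and all 10 were among the 19423 genes with enough reads to be tested. RNA had been sequenced from ovaries of C57BL/6 J mice aged 8 weeks, with 3 samples of the wild type, Bnc1+/+ (numbered 1, 4 and 7), and 3 of the homozygous mutant, Bnc1tr/tr (numbered 1, 2 and 3). Bnc1tr/tr mice carry on both alleles a small deletion that shifts the reading frame of Bnc1, which encodes the transcription factor basonuclin 1, and brings in an early stop codon. The deletion is in the germ line, so every cell type of the ovary carries it. The study compared littermates, but the labels do not say which ovaries came from 1 litter or whether an ovary sample held 1 mouse or several. The comparison addresses whether apoptosis genes differ in ovaries that lose their follicles early. At other ages the study asked this of a few of these proteins in ovaries, and of Bax and Bcl2 mRNA and their ratio in oocytes.

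In healthy cells the pro-survival proteins BCL2, BCL-XL (from Bcl2l1) and MCL1 hold the effectors BAX and BAK in check. After DNA damage, growth factor loss or death receptor signalling, BH3-only proteins are made or activated, occupy the groove of the pro-survival proteins or activate the effectors directly, and BAX and BAK then perforate the mitochondrion and release cytochrome c. In the ovary this pathway is known for the removal of oocytes with DNA damage and for the death of granulosa cells in atretic follicles.

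The feature that ties the members together is the BH3 motif, the short helix by which they bind each other. Its coding sequence is shown for 9 members because it is the stretch that effectors, pro-survival and BH3-only proteins have in common. Each stretch was read 5′ to 3′ on the coding strand of the GRCm38 genome with the GENCODE M21 annotation and lies within a single coding exon. The capitals mark the codon of the conserved leucine and, after 3 further codons, the codons of a small residue and of the aspartate. The search took glycine, alanine or serine as the small residue. It also asked for aspartate, glutamate, glycine, methionine or asparagine right after the marked aspartate. All 9 proteins held 1 match to this fuller pattern.
Bax (chr7:45465994-45466035, minus strand): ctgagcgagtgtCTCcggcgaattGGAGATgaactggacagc
Bak1 (chr17:27022528-27022569, minus strand): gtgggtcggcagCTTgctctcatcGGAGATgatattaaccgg
Bcl2 (chr1:106712572-106712613, minus strand): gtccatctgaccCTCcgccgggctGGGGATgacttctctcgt
Bcl2l1 (chr2:152829694-152829735, minus strand): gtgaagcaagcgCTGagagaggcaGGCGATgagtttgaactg
Mcl1 (chr3:95659424-95659465, plus strand): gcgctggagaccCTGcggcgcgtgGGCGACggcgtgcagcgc
Bcl2l11 (chr2:128147138-128147179, plus strand): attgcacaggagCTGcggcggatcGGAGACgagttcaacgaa
Bbc3 (chr7:16313761-16313802, plus strand): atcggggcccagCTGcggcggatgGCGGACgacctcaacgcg
Bad (chr19:6950780-6950821, plus strand): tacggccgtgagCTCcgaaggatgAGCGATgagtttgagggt
Bid (chr6:120897286-120897327, minus strand): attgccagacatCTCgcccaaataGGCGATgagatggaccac
The small residue before the aspartate was glycine in 7 of the 9, alanine in Bbc3 and serine in Bad. The effectors and the pro-survival members share the glycine with Bcl2l11 and Bid, so this position does not separate the groups.

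None of the 10 members differed between the genotypes at an adjusted p under 0.05 by the quasi-likelihood test of edgeR, adjusted over all genes tested by the Benjamini-Hochberg method, where 7.06% of all genes did. The nearest were both effectors, whose level in Bnc1tr/tr ovaries was 0.851-fold (Bax) and 0.815-fold (Bak1) that in Bnc1+/+ ovaries, with all 3 mutant ovaries below all 3 wild-type ovaries. At an unadjusted p under 0.05, 2 members (Bax and Bak1, both lower) stood out, against 24.2% of all genes. With other tests on the same counts, DESeq2 called 1 member (Bak1) and limma-voom and a robust edgeR fit called 0. Of all 19423 genes tested, DESeq2 called 2420, limma-voom 1303 and the robust edgeR fit 1394. Leaving out any 1 ovary also gave 0 members called. Levels are given below as CPM, the reads on the gene per 1000000 reads of the ovary's TMM-scaled total, and fold changes as log2 of Bnc1tr/tr over Bnc1+/+.

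Bax, the effector that moves from the cytosol to the mitochondrion, had 89.8, 81.4 and 82.5 CPM in Bnc1+/+ replicates 1, 4 and 7 and 66.8, 74.9 and 74.2 CPM in Bnc1tr/tr replicates 1, 2 and 3. Every mutant ovary was below every wild-type ovary, with means of 84.6 ± 4.56 and 71.9 ± 4.49 CPM (SD, n = 3). The log2 fold change was -0.23 (SE 0.085, 95% interval -0.43 to -0.04), with an adjusted p of 0.144 by edgeR's quasi-likelihood test. Bak1, the effector that resides on the mitochondrion, had 119, 125 and 126 CPM in Bnc1+/+ and 90.9, 103 and 108 CPM in Bnc1tr/tr, in the same replicate order. The genotypes again did not overlap, with means of 123 ± 3.63 and 101 ± 8.78 CPM. Its log2 fold change of -0.29 (SE 0.088, 95% interval -0.50 to -0.09) had an adjusted p of 0.0894 by edgeR, and an adjusted p of 0.0434 by DESeq2. Of the exonic bases of Bak1, 25.5% overlap those of Ggnbp1 on the opposite strand, and of those of Bax, 12.2% overlap the predicted gene Gm45808 on the same strand. Whether reads were counted by strand is not given in the sources used here, so reads of the overlapping stretches may belong to either gene.

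**Figure D1:**
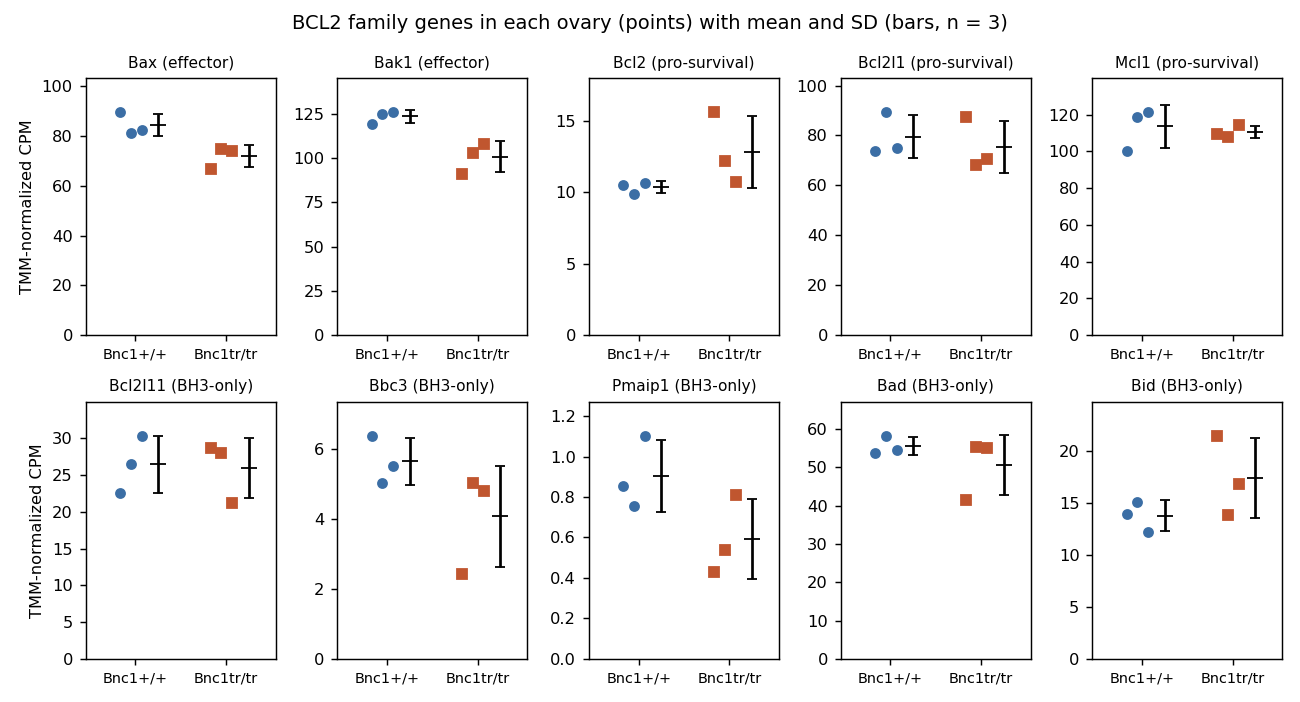
TMM-normalized CPM (linear axes from 0) of the 10 BCL2 family members in each ovary, with 1 point per ovary in replicate order (Bnc1+/+ 1, 4, 7 and Bnc1tr/tr 1, 2, 3) and the mean and SD of each genotype (n = 3) beside the points. The Bax and Bak1 points of Bnc1tr/tr lie below all Bnc1+/+ points, while the points of Bcl2l1, Mcl1 and Bcl2l11 overlap.

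Among the pro-survival members, Bcl2 had the log2 fold change farthest from 0. Bcl2, the founding member of the family, had 10.5, 9.88 and 10.66 CPM in Bnc1+/+ and 15.6, 12.2 and 10.68 CPM in Bnc1tr/tr. Bnc1tr/tr replicate 3 was hardly above the highest wild-type ovary, and replicate 1 was the highest of the 6. The means were 10.4 ± 0.415 and 12.8 ± 2.53 CPM, a log2 fold change of 0.31 (SE 0.16, 95% interval -0.05 to 0.67) with an adjusted p of 0.274 by edgeR. Without Bnc1tr/tr replicate 1 the log2 fold change of Bcl2 was 0.14. Of its long exonic sequence, 6.09% overlaps D630008O14Rik on the opposite strand.

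Bcl2l1, whose main product BCL-XL guards many cell types, had 73.9, 89.4 and 75.1 CPM in Bnc1+/+ and 87.3, 68.2 and 70.5 CPM in Bnc1tr/tr. Mcl1, a short-lived protein on which growing oocytes are known to depend, had 100.3, 119 and 122 CPM in Bnc1+/+ and 109.7, 108 and 114 CPM in Bnc1tr/tr. In both genes the ovaries of the genotypes were interleaved. The log2 fold changes were -0.08 for Bcl2l1 (95% interval -0.36 to 0.21) and -0.04 for Mcl1 (95% interval -0.26 to 0.18). Differences within these intervals could not be told from no difference with 3 ovaries per genotype.

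Within the BH3-only group, Bbc3 and Pmaip1, which encode PUMA and NOXA and are classical targets of p53, had the most negative fold changes of all members and also the fewest reads. Bbc3 had 6.39, 5.05 and 5.52 CPM in Bnc1+/+ and 2.42, 5.04 and 4.79 CPM in Bnc1tr/tr, from 68 to 172 reads per ovary. The genotypes were barely apart, since Bnc1tr/tr replicate 2 lay just under Bnc1+/+ replicate 4, and replicate 1 was far below the other two mutant ovaries. The log2 fold change of Bbc3 was -0.47 (SE 0.29, 95% interval -1.13 to 0.19), with an adjusted p of 0.361 by edgeR, and -0.20 without Bnc1tr/tr replicate 1. Pmaip1 had 0.855, 0.755 and 1.10 CPM in Bnc1+/+ and 0.427, 0.539 and 0.811 CPM in Bnc1tr/tr, from 12 to 32 reads per ovary. These values overlap, and the log2 fold change of -0.60 (SE 0.34, 95% interval -1.38 to 0.18) had an adjusted p of 0.318 by edgeR.

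Bid, which couples death receptors to the mitochondrion once caspase 8 has cut it, was the only BH3-only member with a higher mean in Bnc1tr/tr ovaries. It had 13.98, 15.2 and 12.2 CPM in Bnc1+/+ and 21.5, 13.9 and 16.9 CPM in Bnc1tr/tr, where replicate 1 was the highest and replicate 2 lay within the wild-type range. The log2 fold change was 0.34 (SE 0.17, 95% interval -0.06 to 0.74), with an adjusted p of 0.281 by edgeR. Without Bnc1tr/tr replicate 1 it was 0.16. Of the exonic bases of Bid, 17.7% overlap its relative Bcl2l13, which lies on the opposite strand.

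Bcl2l11, which encodes BIM, the sensor of growth factor loss, had 22.6, 26.5 and 30.4 CPM in Bnc1+/+ and 28.6, 27.9 and 21.3 CPM in Bnc1tr/tr. Its log2 fold change was -0.03 (95% interval -0.38 to 0.33), and the ovaries of both genotypes covered nearly the same range. Bad, which is switched off by phosphorylation when survival signals are present, had 53.8, 58.3 and 54.4 CPM in Bnc1+/+ and 41.5, 55.3 and 54.95 CPM in Bnc1tr/tr. Apart from the low replicate 1, the mutant ovaries lay within the wild-type range, and the log2 fold change was -0.13 (95% interval -0.42 to 0.15). For Bad, 20.5% of the exonic bases overlap Gpr137 on the opposite strand.

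Bnc1tr/tr replicate 1 was thus the ovary that stood at the edge most often. It held the lowest or the highest level of the 6 ovaries in 7 of the 10 members, and it did so in 49.5% of all genes tested. For the other 5 ovaries the count was 1 to 5 members, and the share of all genes was 26.4% to 36.5%. The genotypes did not overlap in 1 member with the higher level in Bnc1tr/tr (Bcl2) and in 3 with the lower level (Bax, Bak1 and Bbc3). Over all genes tested these shares were 15.0% and 15.8%. The log2 fold change was negative in 8 of the 10 members, with a median of -0.11 against 0.02 over all genes tested. With library size in place of TMM, which moved the median of all genes to 0.12, Bcl2l1, Mcl1 and Bcl2l11 turned positive and the median of the members was -0.01. The median size of the change was 0.26 for the members and 0.21 for all genes.

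**Figure D2:**
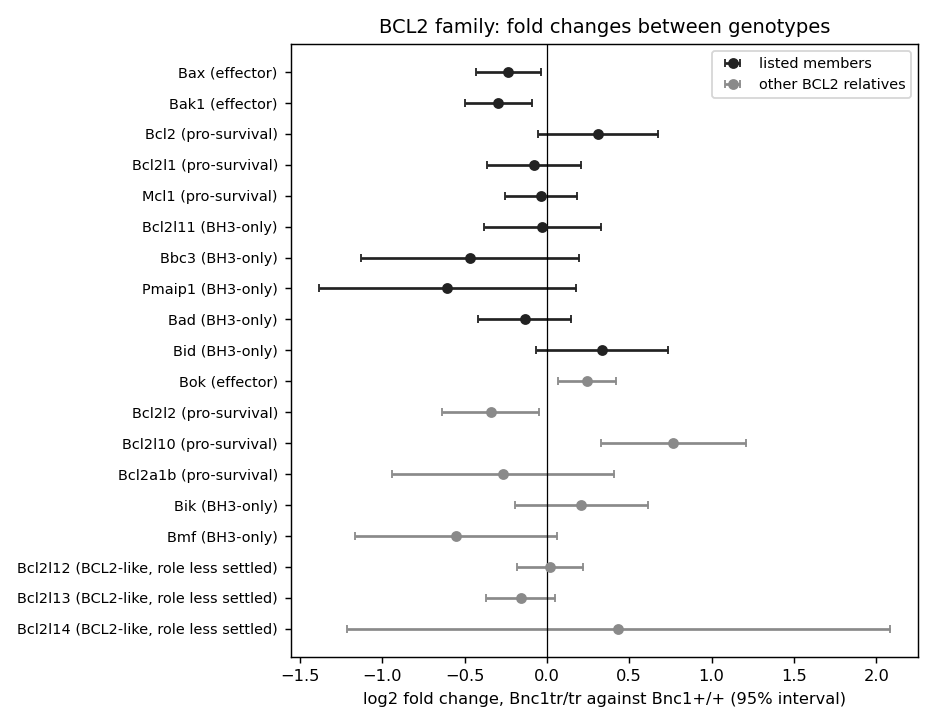
Log2 fold changes of Bnc1tr/tr over Bnc1+/+ with their 95% intervals from edgeR's quasi-likelihood fit, for the 10 members (black) and the 9 further BCL2 relatives with enough reads to be tested (grey). The intervals of Bax, Bak1 and Bcl2l2 lie below 0 and those of Bok and Bcl2l10 above 0 before adjustment for the number of genes tested.

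The ratio of Bax to Bcl2, an effector over a pro-survival gene, was computed within each ovary and so does not depend on the scaling between ovaries. The count of Bax divided by that of Bcl2 was 8.53, 8.24 and 7.74 in the wild-type ovaries and 4.28, 6.14 and 6.94 in the mutant ovaries, in replicate order. On the log2 scale the ratio was 3.09, 3.04 and 2.95 in the wild-type and 2.10, 2.62 and 2.80 in the mutant ovaries. Every mutant ovary had a lower ratio than every wild-type ovary, and the mutant ovaries were spread more widely. The means were 3.03 ± 0.071 and 2.50 ± 0.36 (SD), a difference of -0.53. The exact two-sided permutation test gave p = 0.1, which is the smallest p that 3 ovaries against 3 can give. Without Bnc1tr/tr replicate 1 the difference was -0.32. The value compares reads per gene and not molecules, since the genes differ in length, and the same difference would be found per length.

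**Figure D3:**
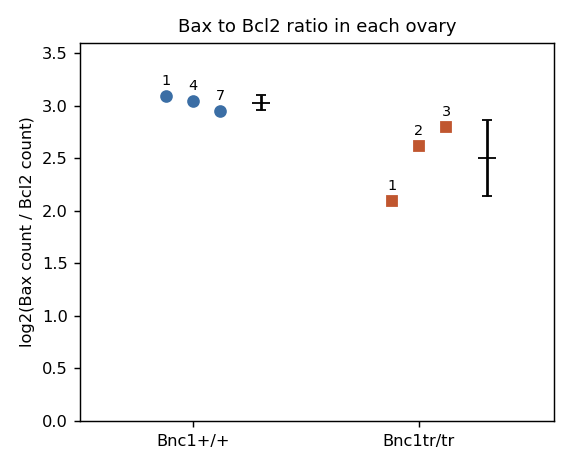
Log2 of the Bax count over the Bcl2 count in each ovary (points, numbered by replicate) with the mean and SD of each genotype (bars, n = 3). The 3 Bnc1tr/tr ovaries, at 2.10 to 2.80, lie below the 3 Bnc1+/+ ovaries, at 2.95 to 3.09, and replicate 1 is the lowest.

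To compare the members with each other, CPM was divided by the length of each gene's exons in kilobases. On this scale the effectors led. In Bnc1+/+ ovaries Bax had 53.7 ± 2.89 and Bak1 51.3 ± 1.51 CPM per kb (SD, n = 3), and their ovaries overlapped. Mcl1 followed with a level of 33.2 ± 3.38, Bad with 21.7 ± 0.944 and Bcl2l1 with 17.3 ± 1.88 CPM per kb. A wide gap separated these 5 from the others. Bid had 3.89 ± 0.414, Bcl2l11 3.30 ± 0.485 and Bbc3 2.66 ± 0.322 CPM per kb, and the ovaries of Bid and Bcl2l11, and of Bcl2l11 and Bbc3, overlapped. Bcl2, at 1.13 ± 0.0454, and Pmaip1, at 0.331 ± 0.0657 CPM per kb, were the lowest. The order of the means was the same in Bnc1tr/tr ovaries. Among the pro-survival members, Mcl1 supplied 60.7% to 67.0% of the summed CPM per kb in the 6 ovaries and Bcl2l1 30.7% to 36.0%. Bcl2 supplied 1.95% to 2.46% in Bnc1+/+ and 2.33% to 3.23% in Bnc1tr/tr, so the gene with the log2 fold change farthest from 0 in this group was a small share of its summed level, and in CPM per kb the mean of Bcl2 differed by less than those of Mcl1 and Bcl2l1. Exon lengths are those of all annotated isoforms together, which can lower the value of genes with long or rarely used exons such as Bcl2.

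**Figure D4:**
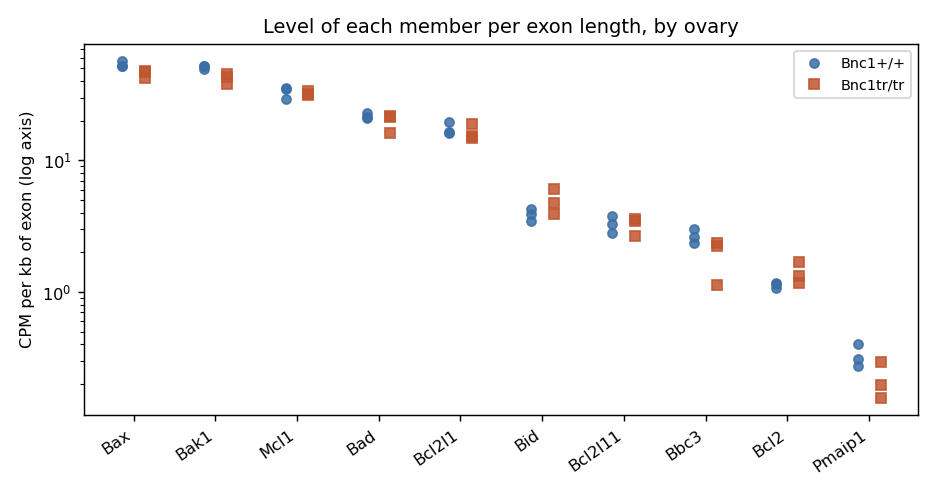
Levels of the 10 members in CPM per kb of exon (log axis) in each Bnc1+/+ (circles) and Bnc1tr/tr (squares) ovary, ordered by the Bnc1+/+ mean. Bax and Bak1 lead at about 51.3 to 53.7 CPM per kb in Bnc1+/+, and Bcl2 and Pmaip1 are the lowest.

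Of 13 other relatives of the family, 9 could be tested and 0 were called by edgeR, with 3 at an unadjusted p under 0.05, against 7.06% and 24.2% of all genes tested. DESeq2 called 1 (Bcl2l10), and 2420 of all 19423 genes, and limma-voom and the robust edgeR fit called 0. Bcl2l10, a pro-survival relative known for its expression in the oocyte, had the largest difference among all relatives tested. It had 70.7, 55.8 and 44.9 CPM in Bnc1+/+ and 109, 77.2 and 105 CPM in Bnc1tr/tr, so that the lowest mutant ovary was above the highest wild-type ovary. Its means were 57.1 ± 13.0 and 97.1 ± 17.4 CPM, a log2 fold change of 0.77 (SE 0.19, 95% interval 0.33 to 1.21) with an adjusted p of 0.0533 by edgeR and 0.00184 by DESeq2. Without Bnc1+/+ replicate 1 or without Bnc1tr/tr replicate 2 it was called by edgeR as well (adjusted p 0.0402 and 0.0375). It was not called without Bnc1+/+ replicate 4 or 7 or Bnc1tr/tr replicate 1 or 3 (adjusted p 0.1113 to 0.1905 by edgeR). In those fits its log2 fold change was 0.61 to 0.74. The summed level of 12 oocyte markers was 559 to 730 CPM in Bnc1+/+ and 703 to 1066 CPM in Bnc1tr/tr. Of the 12, 3 (Gdf9, Bmp15 and Mos) rose, against 559 of all 19423 genes tested, and no marker of the 12 was at 0 in any ovary. Sohlh1, Ddx4 and Figla had lower means in Bnc1tr/tr (log2 fold changes -0.46, -0.07 and -0.03), none of them called. Bcl2l10 and the summed oocyte markers were both highest in Bnc1tr/tr replicates 1 and 3. The part of oocyte number in the level of Bcl2l10 was not tested, and in whole ovaries a change in the share of a cell type and a change in RNA per cell cannot be told apart.

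Bok, the third effector, which can act without the others, had 77.7, 73.5 and 71.6 CPM in Bnc1+/+ and 85.9, 86.6 and 91.2 CPM in Bnc1tr/tr. It lay higher in all 3 mutant ovaries, opposite to Bax and Bak1, with a log2 fold change of 0.24 (SE 0.076) and an adjusted p of 0.0989 by edgeR. Bcl2l2, which encodes the pro-survival protein BCL-W, had 74.8, 80.1 and 99.4 CPM in Bnc1+/+ and 62.7, 74.3 and 63.6 CPM in Bnc1tr/tr. These did not overlap either, and the log2 fold change was -0.34 (SE 0.13, adjusted p 0.150 by edgeR). Of the exonic bases of Bcl2l2, 13.3% overlap Gm20521 on the same strand. The BH3-only gene Bik was low, at 3.09 to 3.23 CPM in Bnc1+/+ and 3.49 to 3.85 CPM in Bnc1tr/tr (log2 fold change 0.21, adjusted p 0.514 by edgeR). Bmf, the BH3-only gene tied to the cytoskeleton, had 53.05, 53.9 and 103 CPM in Bnc1+/+ and 41.6, 57.1 and 44.2 CPM in Bnc1tr/tr. Its log2 fold change of -0.55 (adjusted p 0.247 by edgeR) followed the single high value of Bnc1+/+ replicate 7, without which it was -0.17.

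The remaining relatives had overlapping levels. Bcl2l12, with 28.95% of its exonic bases overlapping Gm15545 on the opposite strand, had 22.4 to 23.4 CPM in Bnc1+/+ and 21.9 to 23.8 CPM in Bnc1tr/tr. Bcl2l13 had 106 to 118 and 94.0 to 109 CPM. The pro-survival gene Bcl2a1b, at 2.16 to 2.69 and 1.56 to 2.77 CPM, shares reads with near-identical copies, so its level is uncertain. Of its exonic bases, 49.1% overlap Gm29094 on the same strand. Bcl2l14 was counted with 2 to 17 reads per ovary. Bcl2a1a, Bcl2a1d, Hrk and Bcl2l15 were detected with no more than 15 reads in any ovary and were not tested. Taking members and relatives by role, the median log2 fold change was -0.23 over 3 effectors, -0.06 over 6 pro-survival genes and -0.13 over 7 BH3-only genes, and none was called by edgeR.

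Bak1 had the smallest unadjusted p among the members, and the genes whose pattern over the 6 ovaries was most like it were Traf7, Pex14 and Gtf3c3. The likeness was the root mean square difference of the centred log2 CPM, which was 0.0158 for Traf7, 0.0243 for Pex14 and 0.0267 for Gtf3c3, among 16752 genes with a mean of at least 1 CPM. Traf7, a ubiquitin ligase, had 229.7, 232 and 238 CPM in Bnc1+/+ and 173, 196 and 206 CPM in Bnc1tr/tr. As for Bak1, Bnc1tr/tr replicate 1 was the lowest and replicate 3 the highest of the mutant ovaries. Pex14 is part of the import machinery of the peroxisome and Gtf3c3 a subunit of the RNA polymerase III factor TFIIIC.

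Downstream of the family, 17 genes of the apoptosome and the caspases were tested, and 1 of them fell, a share no higher than the 7.06% of all genes called. Aifm1 (chrX:48474944-48513563, minus strand, GRCm38) encodes the apoptosis-inducing factor, a mitochondrial oxidoreductase needed for the respiratory chain that can enter the nucleus after the membrane is opened. It had 93.6, 90.2 and 86.1 CPM in Bnc1+/+ and 59.4, 66.6 and 70.9 CPM in Bnc1tr/tr. All mutant ovaries were well below the wild-type ovaries, with means of 90.0 ± 3.78 and 65.6 ± 5.80 CPM and a log2 fold change of -0.45 (SE 0.091, adjusted p 0.0283 by edgeR). The call was lost without Bnc1+/+ replicate 1, 4 or 7 or Bnc1tr/tr replicate 2, where the log2 fold change stayed between -0.49 and -0.43, and with library size in place of TMM, where the log2 fold change was -0.35 (adjusted p 0.0509 by edgeR). The median log2 fold change of the list was 0.03. Parp1 and Trp53 are named beside the rule, after their values were seen, because the study measured their proteins. Parp1, an enzyme of DNA repair, had 202 to 218 CPM in Bnc1+/+ and 211 to 265 CPM in Bnc1tr/tr (log2 fold change 0.15, adjusted p 0.404 by edgeR).

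In the death receptor arm, which reaches the mitochondrion through Bid, 9 of 11 listed genes could be tested. Of these 9, 0 were called by edgeR and 1 had an unadjusted p under 0.05, against 7.06% and 24.2% of all genes tested. DESeq2, limma-voom and the robust edgeR fit also called 0 of them. The median log2 fold change was -0.06, against 0.02 over all genes tested. The ligand genes Fasl and Tnf had no more than 12 reads in any ovary and were not tested.

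Upstream, 21 regulators were tested, among them the transcription factors that switch on Bbc3, Pmaip1 and Bax, with those 3 members counted in the list. Of these 21, 1 rose, 0 fell and 6 had an unadjusted p under 0.05, near the 7.06% and 24.2% of all genes. Trp73 (chr4:154056253-154140208, minus strand, GRCm38), a relative of p53 whose TAp73 isoform is found in oocytes, had 2.34, 0.967 and 1.03 CPM in Bnc1+/+ and 4.98, 3.89 and 7.16 CPM in Bnc1tr/tr. The lowest mutant ovary was above the highest wild-type ovary, with means of 1.45 ± 0.775 and 5.34 ± 1.66 CPM. The log2 fold change was 1.89 (SE 0.40, adjusted p 0.0336 by edgeR), a 3.71-fold difference. The call was lost without Bnc1+/+ replicate 4 or 7 or Bnc1tr/tr replicate 1 or 3, where the log2 fold change stayed between 1.62 and 1.94 and the adjusted p by edgeR was 0.0587 to 0.1455. The antisense gene Trp73os overlaps 5.06% of its exonic bases, and the summed oocyte markers were highest in Bnc1tr/tr replicates 1 and 3, as the level of Trp73 was. Within each genotype Trp73 was also highest in the ovary with the highest summed oviduct markers (Bnc1+/+ replicate 1 and Bnc1tr/tr replicate 3). Without these 2 ovaries its log2 fold change was 2.13 (adjusted p 0.0352 by edgeR). The part of oocyte number or of oviduct tissue in the level of Trp73 was not tested. Trp53 itself had 130 to 131 CPM in Bnc1+/+ and 146 to 162 CPM in Bnc1tr/tr, a log2 fold change of 0.22 (SE 0.077, adjusted p 0.128 by edgeR). The 3 members counted in this list (Bax, Bbc3 and Pmaip1) had lower means in Bnc1tr/tr, as 8 of the 10 members had, and none was called by edgeR. A link between their levels and that of Trp53 was not tested.

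**Figure D5:**
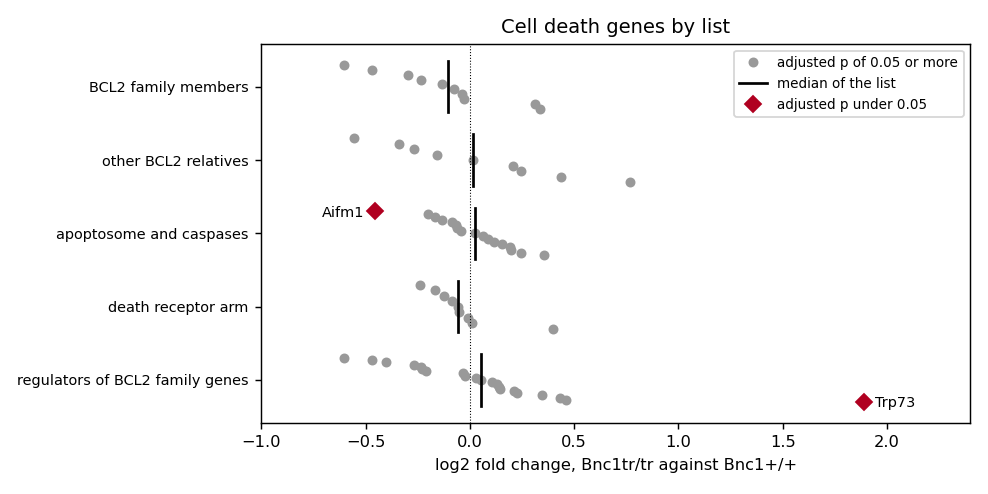
Log2 fold changes of Bnc1tr/tr over Bnc1+/+ for the genes tested in 5 lists of cell death genes, with 1 point per gene and a black line at the median of each list. Aifm1 at -0.45 and Trp73 at 1.89 are the genes with an adjusted p under 0.05, and none of the 10 members or of the 9 other BCL2 relatives is.

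The totals per ovary were 25247770 to 34406296 counts, and all Bnc1+/+ totals were above all Bnc1tr/tr totals. Bnc1 itself received 375, 444 and 381 reads in Bnc1+/+ and 527, 355 and 326 reads in Bnc1tr/tr (log2 fold change 0.12, SE 0.18). A count per gene does not show the small deletion, so it does not check the genotypes. The summed marker levels of the corpus luteum and of the endothelium did not overlap between the genotypes. The summed level of 7 corpus luteum markers was 6257 to 8418 CPM in Bnc1+/+ and 1415 to 2074 CPM in Bnc1tr/tr, and 6 of the 7 fell. The summed level of 5 endothelial markers was 440 to 554 and 278 to 322 CPM, and 4 of the 5 fell. Of all 19423 genes tested, 813 fell and 559 rose, 7.06% in all. Markers of granulosa cells gave overlapping sums of 3504 to 4714 and 3923 to 6039 CPM, with 1 of 9 (Amh) risen. Foxl2, Inhba, Inhbb, Cyp19a1 and Nr5a2 had lower means in Bnc1tr/tr, none of them called. The sums of 5 adipose markers also overlapped, at 13.4 to 78.2 and 28.7 to 253 CPM, with 1 of 5 (Plin1) risen. The part of these cell types in the levels of Bax, Bak1 and the other members was not tested, and no marker of these lists was at 0 in any ovary. Oviduct markers were high in 2 ovaries, with a summed level of 157 CPM in Bnc1+/+ replicate 1 and 537 CPM in Bnc1tr/tr replicate 3 against 53.1 to 58.5 CPM in the other 4. Without these 2 ovaries 0 members were called by edgeR, the log2 fold change was -0.38 for Bak1 and -0.22 for Bax, and that of Aifm1 was -0.49, no longer called with fewer ovaries (adjusted p 0.136).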

How the data were processed

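Total RNA of 6 ovary samples was sequenced single-end by Ion Proton. Raw counts were deposited by the authors as whole numbers of reads per gene symbol and ovary, with no normalization. The submitters' processing notes name the builds mm10 and Sscrofa10.2, a pig assembly, without saying what each was used for. The aligner, the counting tool, its strand setting and the annotation are not given in the sources used here. Columns were matched to the labels by sample title.

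Genes were filtered with edgeR's filterByExpr (minimum count 10), scaled by TMM factors and tested two-sided by the quasi-likelihood functions glmQLFit and glmQLFTest (edgeR 4.0.16 under R 4.3.3). Benjamini-Hochberg adjusted p values over all 19423 genes were held to a threshold of 0.05. The SE was the log2 fold change divided by the square root of F, and 95% intervals used the total degrees of freedom of the fit, residual plus prior. The pipeline was tested on simulated counts. Since nothing says that samples came from separate litters, p values measure the spread between these ovaries. Alternatives replaced TMM by DESeq2 size factors or by library size alone, dropped the filter or asked for at least 10 counts in every ovary, used DESeq2 1.42.0, limma-voom (limma 3.58.1), or a robust edgeR fit, or left out each ovary in turn. Leaving out both ovaries with high oviduct markers was added after seeing the data.

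The members and lists were chosen with earlier results of these data known, and the lists were written from general knowledge. The text names all members, every detected relative, every listed gene with an adjusted p under 0.05, and the 3 genes most like the member with the smallest unadjusted p, with other names said to be outside this rule. In the marker lists 1 older symbol was matched through RefSeq synonyms. Positions, exon lengths (the union over isoforms) and coding sequences came from GRCm38 with GENCODE M21.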

Additional observations from a re-analysis of the deposited data

How the results depend on the processing

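The number of members called was 0 in every alternative but DESeq2, which called 1 (Bak1), and 7 of the 10 members kept their direction in all 14 alternatives. The directions of Bcl2l1, Mcl1 and Bcl2l11 did not hold. With library size in place of TMM their log2 fold changes were 0.022, 0.061 and 0.069, and leaving out 1 ovary gave -0.20 to 0.0071 for Bcl2l1, -0.13 to 0.0040 for Mcl1 and -0.14 to 0.096 for Bcl2l11. Library size alone moved the median of all genes to 0.12 and the share of lower calls over all genes to 35.6%, against 59.3% with TMM. Among the relatives, leaving out 1 ovary gave -0.0045 to 0.051 for Bcl2l12 and -0.15 to 1.12 for Bcl2l14, and Bcl2l14 was -0.18 without both ovaries that held oviduct markers. The relatives called were 0 with TMM, 2 with library size alone, 1 with no filter and 1 with DESeq2, and 0 to 1 when 1 ovary was left out. Of the apoptosome and caspase genes 0 to 1 was called when 1 ovary was left out and 0 without both oviduct-rich ovaries, and library size alone called 1 (Birc3) in place of Aifm1. Of the regulators 3 were called with library size alone (Trp73, E2f1 and Trp53), 2 with DESeq2 (Trp73 and E2f1) and 0 to 1 when 1 ovary was left out. Over all genes 1372 were called, 1728 with library size alone, 1530 of 31717 with no filter and 2420 with DESeq2. The number over all genes was 320 to 1282 when 1 ovary was left out and 304 without both oviduct-rich ovaries. Fits with fewer ovaries have fewer degrees of freedom, and otherwise the cause of these shifts was not tested. The Bax to Bcl2 difference was -0.67 to -0.32 when 1 ovary was left out, and such permutation tests cannot reach the threshold at this size.

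No paired analysis was possible because the genotypes share a single replicate number and the labels name no litter. Among the 10 members Pmaip1 had the fewest reads, 12 to 32 per ovary.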
